A study of Mus musculus with 8 samples.

Results

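Whole mouse embryos with a low-expression allele of Rbm15 (Ott1 in the older naming) on both chromosomes were compared with wild type embryos, 3 against 2. All came from matings of mice that carry the allele and were taken at E11.5, a stage of midgestation. These 5 arrays, of the 8 in the series, were chosen by the genotype in their titles: homozygous embryos 2, 7 and 16 and wild type embryos 11 and 13. Heterozygous embryos 3, 10 and 15 lent their spread to the fit and are given side by side. Each array was hybridised with RNA of 1 whole snap-frozen embryo, so every value is an average over all tissues, and neither strain background nor sex was labelled. The allele lowers expression and is not described as a null in the labels, and each group is a set of separate embryos with no further treatment. The arrays were single-colour CodeLink oligonucleotide arrays with 34967 gene probes, of which 23387 were above background in at least 1 genotype and could be tested.

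Rbm15 belongs to the Spen family of RNA-binding proteins. It recruits the m6A methyltransferase complex to RNA, takes part in splicing and in export of mRNA from the nucleus, and is best known from a fusion gene in acute megakaryoblastic leukaemia of infants. In mice it is needed for normal development of the blood, spleen, heart and placental vessels, so the embryo at midgestation is a stage at which its loss is known to matter.

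No probe was matched to Rbm15, so the lowered dose could not be checked on these arrays. The paralog Rbm15b, which also serves the m6A complex, measured 10.52 and 10.58 on the log2 intensity scale in the wild type embryos and 10.87, 10.82 and 10.93 in the homozygous embryos. The groups did not overlap, but the difference of 0.32 ± 0.11 (SE) did not pass the threshold (limma, adjusted p = 0.261) and was -0.02 in the deposited value table.

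The homozygous arrays were brighter than the wild type arrays before normalization. Median background-corrected intensities were 60.0, 61.9 and 84.5 in homozygous embryos 2, 7 and 16 and 56.2 and 56.7 in wild type embryos 11 and 13. Homozygous embryo 16 stood apart, with 1634 gene spots left out for a mark of the scanner software against 206 to 616 on the other arrays. Its correlations with the other arrays lay between 0.956 and 0.968, and those among the other 7 arrays between 0.973 and 0.99. The array number recorded in the files was 0, 1 and 3 for the homozygous and 5 and 6 for the wild type arrays. Array number and genotype thus run together in this comparison, and the labels do not say whether the number is a processing order. The mean of 5 Y-linked probes was high in both wild type embryos (7.27 and 6.97) and in homozygous embryos 2 and 7 (7.02 and 7.29), and low in homozygous embryo 16 (5.24). The part of brightness in the results was not tested. For sex and array number only refits were made: with the mean of the Y-linked probes as a covariate 7 probes passed in limma, and values with the array number as a covariate stand beside the results below.

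Of the 23387 probes, 8 passed an adjusted p of 0.05 in the limma fit, which is 0.0342%, with 2 higher (0.00855%) and 6 lower (0.0257%) in homozygous embryos, so that 25.0% of the calls were higher. With cyclic loess 11 of 20 calls were higher (55.0%), and with normexp background correction 20 of 36 (55.6%). An unadjusted p under 0.05 was reached by 3577 probes (15.3%), of which 1388 were higher (5.93% of all) and 2189 lower (9.36%), and 40.1% of all probes had a positive difference. The median difference over all tested probes was -0.07, and it was -0.25 with median scaling and -0.28 in the scaled values the authors deposited. Differences under those scalings were thus lower in the middle of all probes but not for each probe. Onecut1, for 1, differed by 1.45 in the main fit and by 1.54 with median scaling. Heterozygous against wild type gave 0 probes in the same limma fit, with 538 (2.3%) at an unadjusted p under 0.05, and homozygous against heterozygous gave 5, or 0.0214%. These contrasts share arrays and are not independent. With only the 5 compared arrays in the limma fit no probe passed, although 3042 had an unadjusted p under 0.05. No probe passed either with the array number as a covariate (752 at an unadjusted p under 0.05) or without wild type embryo 11 (1605), and 2 passed without wild type embryo 13.

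Among the probes with a gene name, Ccdc28b fell furthest. It encodes a coiled-coil protein that modifies Bardet-Biedl syndrome and acts at the primary cilium. Its log2 intensity was 8.58 and 8.56 in wild type embryos and 4.78, 4.26 and 3.68 in homozygous embryos 2, 7 and 16. All 3 homozygous values lay far below both wild type values, and only 1 of them was above background. The difference was -4.33 ± 0.29 (SE; limma, adjusted p = 0.00479), and it was -2.55 with normexp background correction. With 2 of the 3 homozygous values below background the size of the fall is uncertain, and no fold is given. The heterozygous embryos, at 8.44, 8.51 and 8.76, sat with the wild type, and homozygous against heterozygous also passed (-4.33, limma, adjusted p = 0.0024). The threshold was also passed in 18 of 22 alternative analyses. The primary cilium and Bardet-Biedl list, Ccdc28b included, had 20 tested members with a median of -0.13. At an unadjusted p under 0.05, 3 of them were lower (15.0%, beside 9.84% of all genes), with Ccdc28b among the 3. With median scaling 8 were lower, beside 15.1% of all genes, and without homozygous embryo 16 it was 6, beside 8.56%. Ift20, a carrier in intraflagellar transport, differed by -0.53 (limma, adjusted p = 0.216).

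Trnau1ap, whose product associates with the selenocysteine transfer RNA, fell as well. It measured 10.49 and 10.31 in wild type, 10.39, 10.65 and 10.18 in heterozygous and 8.51, 8.58 and 8.54 in homozygous embryos. The 3 homozygous values were nearly equal, and the heterozygous values spanned the wild type ones. The difference was -1.86 ± 0.16 (SE; limma, adjusted p = 0.016), a 3.63-fold lower level, and it passed in 16 of 23 alternatives. Of the 20 tested genes of the selenocysteine machinery and selenoproteins, Trnau1ap alone passed, and their median was -0.12.

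Trim62, a ubiquitin ligase of the tripartite motif family, showed a like pattern without passing the threshold. Its values were 7.75 and 7.89 in wild type, 7.93, 7.61 and 7.84 in heterozygous and 5.58, 6.02 and 4.81 in homozygous embryos. Homozygous embryos did not overlap with the others, but they spread more among themselves than for Trnau1ap. The difference was -2.35 ± 0.31 (SE; limma, adjusted p = 0.103), and it passed in 8 of 23 alternatives, among them the fit without homozygous embryo 16 (-2.10, limma, adjusted p = 0.0282).

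**Figure D1:**
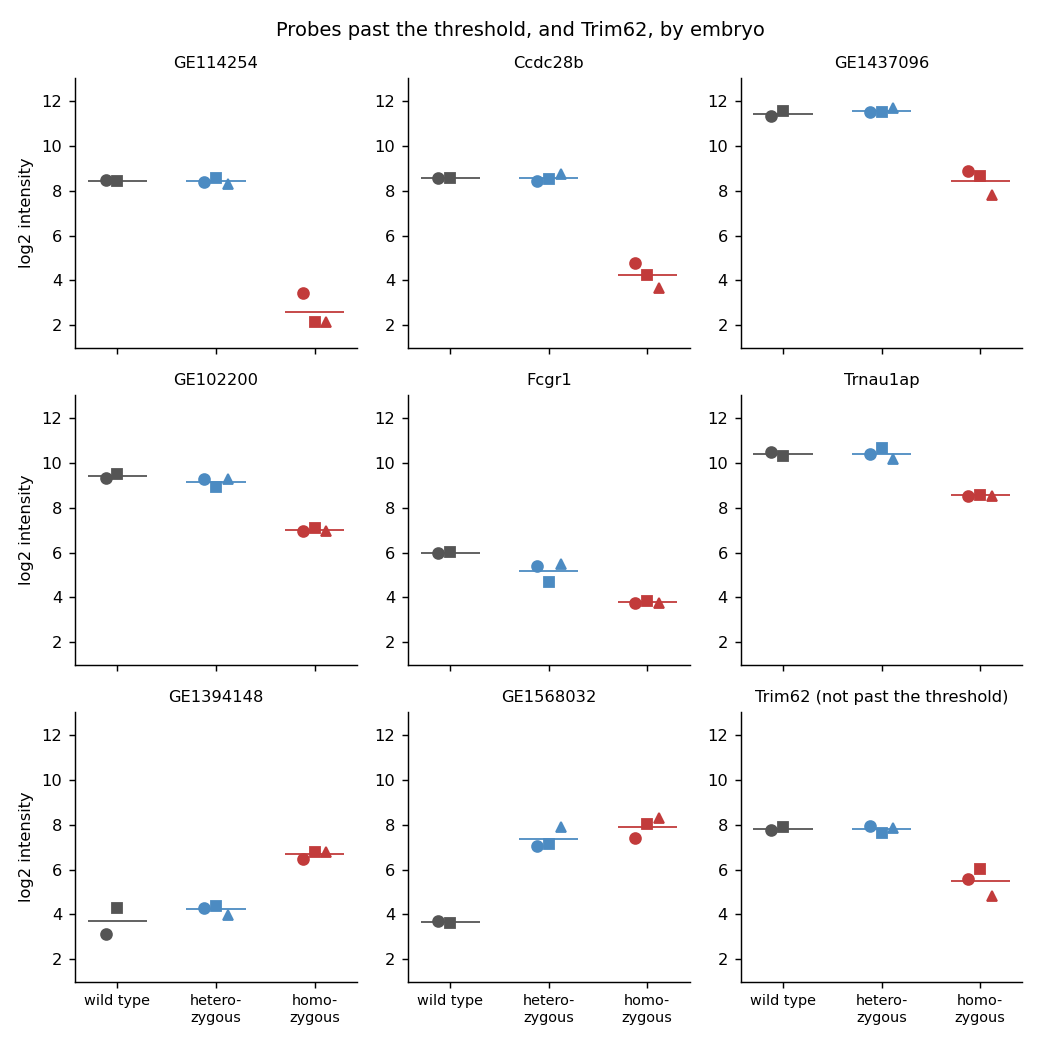
Log2 normalized intensity (vertical axis) by genotype (horizontal axis) for the 8 probes past the adjusted threshold and for Trim62. Points are embryos, with circle, square and triangle in order of embryo number, and lines are group means; heterozygous embryos lie with the wild type for Ccdc28b, Trnau1ap, Trim62, GE114254 and GE1437096 and near the homozygous embryos for GE1568032.

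Ccdc28b, Trnau1ap and Trim62 all lie on chromosome 4, in the order Trim62, Ccdc28b, Trnau1ap in the GRCm38.p6 gene table. Between Trim62 and Ccdc28b the table holds 25 protein-coding genes, of which 14 were tested. Between Ccdc28b and Trnau1ap it holds 31, of which 25 were tested. None of these tested genes passed, and at an unadjusted p under 0.05 there were 2 higher and 1 lower in the first interval and 1 higher and 4 lower in the second. Over all tested genes with a symbol 4.09% were higher and 9.84% lower, with a median difference of -0.08. The 10 nearest tested neighbours of Ccdc28b had a median difference of -0.04, those of Trnau1ap 0.03 and those of Trim62 0.05. Among these neighbours Iqcc, next to Ccdc28b, had the largest difference, 1.12 (limma, adjusted p = 0.220).

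Fcgr1, the high-affinity immunoglobulin G receptor of monocytes and macrophages, was the third named gene that fell. It measured 5.96 and 6.01 in wild type and 3.75, 3.83 and 3.77 in homozygous embryos, with 1 of the 3 homozygous values above background. The groups stood well apart and the homozygous values were nearly equal. The difference was -2.20 ± 0.23 (SE; limma, adjusted p = 0.0484), close to the threshold, and it passed in 9 of 22 alternatives. It was -0.79 with normexp background correction, and with 2 of 3 homozygous values below background no fold is given. Heterozygous embryos lay between the groups at 5.38, 4.68 and 5.48.

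The other 5 probes have no gene name in the tables used. GE114254 measured 8.46 and 8.43 in wild type and 3.44, 2.17 and 2.17 in homozygous embryos. No homozygous array was above background, so its level fell at least 21-fold (fitted difference -5.85, limma, adjusted p = 0.0044). GE1437096 fell from 11.32 and 11.55 to 8.87, 8.63 and 7.80, an 8.01-fold lower level (limma, adjusted p = 0.0348). GE102200 fell from 9.31 and 9.52 to 6.97, 7.12 and 6.98, or 5.26-fold (limma, adjusted p = 0.0044). For these 3 probes the heterozygous minus wild type differences were -0.02, 0.12 and -0.27.

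Both probes that rose were below background in the wild type. GE1568032 measured 3.70 and 3.60 in wild type and 7.39, 8.03 and 8.29 in homozygous embryos, at least 11.6-fold higher (fitted difference 4.25, limma, adjusted p = 0.00987). Here the heterozygous embryos, at 7.05, 7.13 and 7.91, sat near the homozygous ones, with a heterozygous minus wild type difference of 3.71 (limma, adjusted p = 0.106). GE1394148 measured 3.13 and 4.26 in wild type and 6.46, 6.79 and 6.79 in homozygous embryos, at least 4.98-fold higher (limma, adjusted p = 0.0484). Its heterozygous values of 4.31, 4.39 and 3.99 were all below background. GE1394148 was therefore tested only because it was above background in the homozygous embryos. GE1568032 was tested through the heterozygous and homozygous embryos, where it is high. Ccdc28b, Fcgr1 and GE114254, not above background in all homozygous embryos, were tested through genotypes where they are higher. A probe that enters only through groups where it is high has to differ, which limits its adjusted p and its place among the calls. Among probes above background on all 8 arrays 8 passed (limma), and 3 of these were calls of the main fit.

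Of the 11002 tested genes with a symbol, 3 passed, all lower, which is 0.0273%. By unadjusted p under 0.05, 450 were higher (4.09%) and 1083 lower (9.84%). Homozygous and wild type values did not overlap for 1367 genes on the high side (12.4%) and 3005 on the low side (27.3%), and the median difference was -0.08. The difference was positive for 4099 genes (37.3%) and negative for 6903. These shares are the background for every list below in the main fit, and of the genes named from here on only Fcgr1 passed the threshold. They move with the fit. Lower genes made up 15.1% with median scaling, 16.7% in the deposited value table, 3.67% without wild type embryo 11 and 3.96% without wild type embryo 13. With the array number as a covariate 1.68% of genes were lower, and 361 of 23387 probes were higher. A list count under an alternative is to be read beside the share in that same fit. Lists with a median near that of all genes change sign with the scaling: under median scaling the medians of the Myc, cardiomyocyte, lysosome, m6A, imprinted and ribosomal protein lists were negative, and in the deposited value table those of the matrix and endothelium lists as well.

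On the high side, 2310022B05Rik, a gene with little known function, measured 5.70 and 5.76 in wild type, 6.69, 6.66 and 6.98 in heterozygous and 7.38, 7.59 and 8.23 in homozygous embryos. The 3 genotypes did not overlap and stood in the order of allele dose, and the difference of 2.01 ± 0.24 (SE) had a limma adjusted p of 0.0777. Chst15, which adds a sulfate to chondroitin sulfate chains, measured 7.50 and 7.51 against 8.46, 8.53 and 8.36, with heterozygous embryos at 7.54, 7.30 and 7.32. Its difference was 0.95 (limma, adjusted p = 0.101), and it was 1.01 without homozygous embryo 16. Kcne3, a potassium channel subunit, differed by 1.48 (adjusted p = 0.129), and Ak4, a mitochondrial adenylate kinase, by 1.16 (adjusted p = 0.121).

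Mgarp, a mitochondrial protein, differed by 1.34 (adjusted p = 0.153) and Crlf2, a subunit of the receptor for thymic stromal lymphopoietin, by 1.25 (adjusted p = 0.153). Crlf2 measured 8.91 and 9.12 in wild type, 9.02, 8.62 and 9.42 in heterozygous and 10.31, 10.13 and 10.38 in homozygous embryos, so the homozygous embryos alone were high. Nr2f2, a nuclear receptor of veins and mesenchyme, had a pair of probes that disagreed: one differed by 0.94 (adjusted p = 0.111) and the other, with the higher level, by 0.15 (adjusted p = 0.642). Onecut1, a transcription factor of motor neurons and liver, was below background in both wild type embryos and above it in all homozygous ones, at least 2.38-fold higher (adjusted p = 0.111).

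On the low side, Ctsk, a cysteine protease of osteoclasts, measured 5.27 and 5.74 in wild type and 3.83, 4.25 and 3.75 in homozygous embryos (difference -1.56, limma, adjusted p = 0.0936). Homozygous values lay below the wild type values, and 1 of 3 was above background. Taf9b, an X-linked subunit of the transcription initiation complex, measured 9.29 and 9.32 against 8.58, 8.40 and 8.20 (-0.91, adjusted p = 0.112). Mcub, which restrains the mitochondrial calcium uniporter, differed by -0.88 (adjusted p = 0.111), and Arrdc4, an arrestin family member, by -0.67 (adjusted p = 0.119). Rpp40, a subunit of ribonuclease P, was below background in all 3 homozygous embryos and at least 1.83-fold lower (adjusted p = 0.112). Actg2, the smooth muscle gamma actin, differed by -1.61 (adjusted p = 0.134) and Myh8, a myosin heavy chain of fetal muscle, by -1.15 (adjusted p = 0.129).

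Targets of hypoxia-inducible factor and glycolysis genes had the highest list medians, 0.65 and 0.64, among lists chosen with earlier results of these data known. Their order turned in other fits, with 0.32 against 0.45 for the array number as a covariate and 0.40 against 0.44 without embryo 16. In low oxygen this factor escapes hydroxylation by the Egln enzymes, binds hypoxia response elements and raises genes for glucose uptake, glycolysis and vessel growth. Promoters were taken from the RefSeq table, which gives 250 bases before to 50 bases after the start in build GRCm38.p6. Those of Hk2 and Bnip3 are shown because both are members with a small p, a single promoter there and a match of the element core. They are printed 5′ to 3′ along the gene, with every match of the element core, ACGTG or GCGTG on either strand, in capitals, and overlapping matches run together.
Hk2, chr6:82774405-82774704, minus strand: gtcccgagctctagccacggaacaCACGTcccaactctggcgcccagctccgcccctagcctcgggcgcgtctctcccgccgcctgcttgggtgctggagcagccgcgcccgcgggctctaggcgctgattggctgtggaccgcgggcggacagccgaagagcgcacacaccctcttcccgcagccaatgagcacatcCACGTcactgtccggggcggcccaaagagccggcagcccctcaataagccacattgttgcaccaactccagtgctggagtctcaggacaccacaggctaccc
Bnip3, chr7:138909457-138909756, minus strand: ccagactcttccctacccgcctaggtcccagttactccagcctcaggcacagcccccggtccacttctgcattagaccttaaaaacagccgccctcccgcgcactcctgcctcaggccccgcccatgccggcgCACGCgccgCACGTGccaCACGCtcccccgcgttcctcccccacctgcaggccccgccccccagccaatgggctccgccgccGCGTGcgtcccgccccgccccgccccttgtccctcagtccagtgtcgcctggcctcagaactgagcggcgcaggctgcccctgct
Such a core was found in 19 of the 22 hypoxia list genes with a promoter in the table (86.4%) and in 17 of 20 glycolysis genes (85.0%). It was also found in 20 of 24 oxidative phosphorylation genes (83.3%), in 63.3% of all tested genes with a promoter and in 43.8% of all promoters in the table. The match is a description of letters and not of binding, and nothing about the factor is drawn from it.

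Of 25 tested hypoxia genes, 22 had a positive difference, against 37.3% of all tested genes, and the list median was 0.65, against -0.08. The list was chosen with earlier results of these data known, so this comparison is a description and not a test. None of the 25 genes passed the threshold. At an unadjusted p under 0.05, 11 were higher (44.0%) and 0 lower, and 5 were higher with the array number as a covariate, 8 without wild type embryo 11 and 7 without wild type embryo 13. Vegfa, the main growth factor of vessels, measured 7.18 and 7.18 in wild type, 7.66, 7.64 and 7.02 in heterozygous and 8.65, 8.67 and 9.41 in homozygous embryos. All 3 homozygous values exceeded all 5 others, with a difference of 1.73 ± 0.28 (SE), a 3.31-fold level (limma, adjusted p = 0.134). Hk2, the hexokinase that is induced with glycolysis, measured 9.83 and 9.59 against 10.84, 10.92 and 11.51, again without overlap (1.38 ± 0.22, adjusted p = 0.134). Bnip3, a mitochondrial protein that promotes removal of mitochondria, measured 10.99 and 10.79 against 11.95, 12.24 and 12.98 (1.50 ± 0.27, adjusted p = 0.153).

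Egln1, the main oxygen sensor and itself a target, differed by 0.69 (adjusted p = 0.173). Slc2a1, the glucose transporter, differed by 1.14 (adjusted p = 0.211) and Adm, the vascular peptide adrenomedullin, by 1.41 (adjusted p = 0.250). For these 6 genes embryo 16 was the highest, and embryos 2 and 7 also lay above both wild type values. Hif1a, the oxygen-regulated subunit of the factor, differed by -0.08 and the hydroxylase Egln2 by -0.24, neither past the threshold. The list median was 0.43, 0.42 and 1.20 in homozygous embryos 2, 7 and 16, each taken against the wild type mean, and 0.40 in the fit without embryo 16. It was -0.03, 0.24 and -0.12 in heterozygous embryos 3, 10 and 15. With the array number as a covariate it was 0.32.

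**Figure D2:**
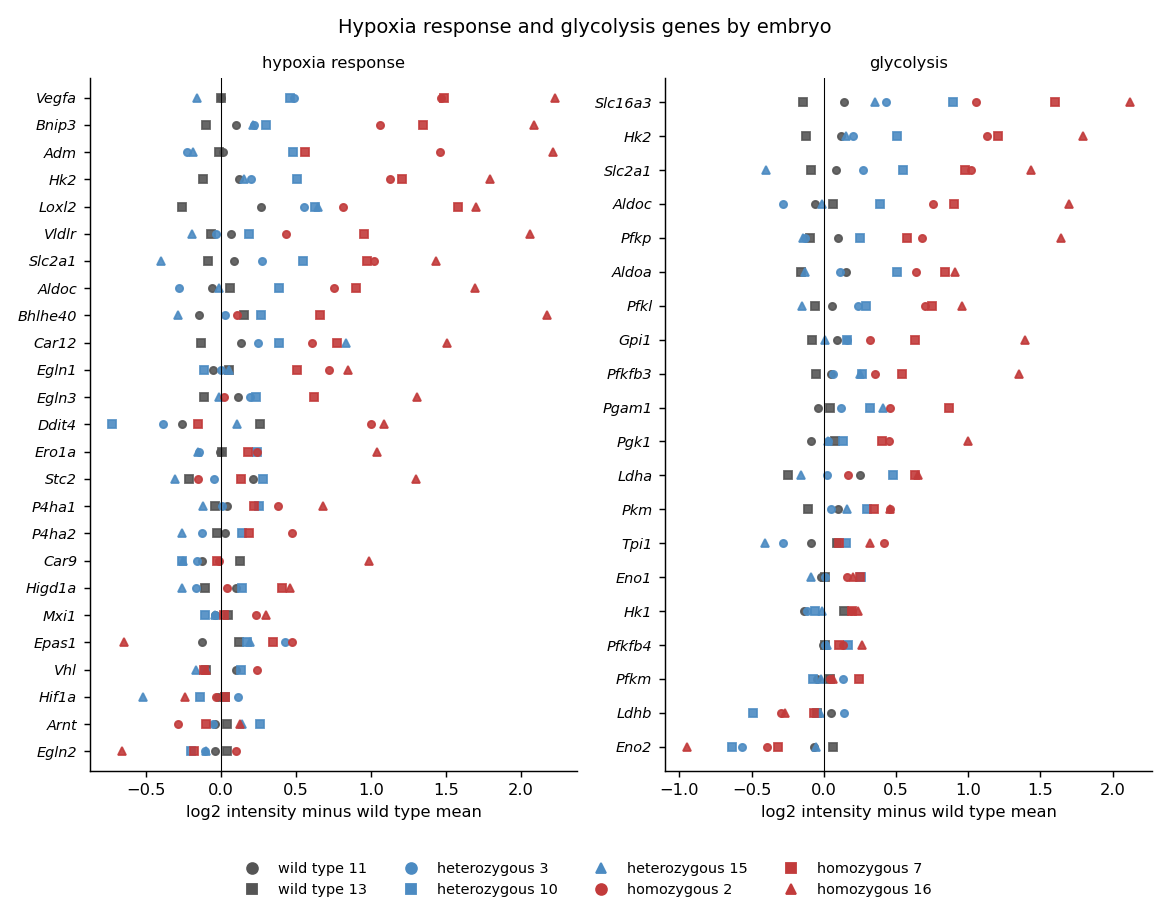
Log2 intensity minus the wild type mean (horizontal axis) for each tested gene of the hypoxia response list (left, 25 genes) and the glycolysis list (right, 20 genes). Each point is an embryo, coloured by genotype; homozygous points lie to the right for most genes and those of embryo 16 furthest, as for Vegfa and Slc16a3.

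Glycolysis genes ran in the same direction, and Aldoc, Hk2 and Slc2a1 stand in both lists. Of 20 tested, 18 had a positive difference, 12 were higher at an unadjusted p under 0.05 (60.0%) and 0 were lower, with a median of 0.64 and none past the threshold. With median scaling 6 were higher and 1 lower, with a median of 0.33, and in the deposited value table the counts were equal to these and the median was 0.29. With the array number as a covariate 3 were higher and the median was 0.45. Slc16a3, which exports lactate, measured 9.10 and 8.82 in wild type, 9.39, 9.85 and 9.31 in heterozygous and 10.01, 10.56 and 11.08 in homozygous embryos. Homozygous values lay above all others, with a difference of 1.59 ± 0.31 (SE), a 3.02-fold level (limma, adjusted p = 0.170). Pfkl, a subunit of phosphofructokinase, measured 9.60 and 9.48 against 10.24, 10.29 and 10.50 (0.80, adjusted p = 0.178). The abundant enzymes Aldoa, Pgam1, Pgk1 and Pkm differed by 0.80, 0.67, 0.62 and 0.43, with adjusted p between 0.216 and 0.247. Pgam1 had no value in embryo 16. Eno2, the neuronal enolase, ran the other way, at -0.55 (adjusted p = 0.332). The list median was 0.43, 0.56 and 0.92 in homozygous embryos 2, 7 and 16.

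Oxidative phosphorylation genes, which encode the respiratory chain, had a negative difference in 29 of 32 tested, against 6903 of all 11002 tested genes. Their median was -0.13, against -0.08. At an unadjusted p under 0.05, 0 were higher and 3 lower (9.38%, beside 9.84% of all genes). This depended on the scaling: median scaling gave 12 lower with a median of -0.49, beside 15.1% of all genes, and in the deposited values 12 were lower with a median of -0.53, beside 16.7%. With the trended robust prior 7 were lower, with the array number as a covariate 0, and 1 without wild type embryo 11 or without wild type embryo 13. Sdhb, a subunit of succinate dehydrogenase, measured 12.26 and 12.30 in wild type and 12.03, 11.62 and 11.57 in homozygous embryos (-0.54, limma, adjusted p = 0.239). Cycs, cytochrome c, measured 12.78 and 12.57 against 12.35, 12.25 and 12.23 (-0.40, adjusted p = 0.251). The list median was similar in all 3 homozygous embryos, at -0.15, -0.11 and -0.17.

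Targets of the integrated stress response were higher mainly in embryo 16. In this response, phosphorylation of the initiation factor eIF2 lets Atf4 be translated, and Atf4 with C/EBP partners raises genes for amino acid supply. The promoters of Chac1 and Asns, both members with a single promoter in the same RefSeq table, hold a core of the shared element, TGATGCAA or TGATGAAA on either strand, in capitals. Both were picked for holding it. Shmt2, Sesn2, Ddit3, Slc3a2, Ppp1r15a and Phgdh had a smaller p than Asns but no such core, and are not shown.
Chac1, chr2:119350992-119351291, plus strand: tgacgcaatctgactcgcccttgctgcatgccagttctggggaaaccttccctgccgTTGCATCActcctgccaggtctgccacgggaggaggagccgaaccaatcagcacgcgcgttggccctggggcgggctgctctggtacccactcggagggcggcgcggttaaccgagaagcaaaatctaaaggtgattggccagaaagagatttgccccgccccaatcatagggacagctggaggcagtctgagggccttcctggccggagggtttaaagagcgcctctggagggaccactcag
Asns, chr6:7693160-7693459, minus strand: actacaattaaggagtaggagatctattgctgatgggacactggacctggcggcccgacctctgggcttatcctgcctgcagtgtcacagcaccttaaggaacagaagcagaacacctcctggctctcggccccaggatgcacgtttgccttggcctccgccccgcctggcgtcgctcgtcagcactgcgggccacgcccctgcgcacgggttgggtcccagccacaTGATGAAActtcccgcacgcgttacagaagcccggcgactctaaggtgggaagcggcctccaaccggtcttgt
This core was found in 4 of 17 list genes with a promoter (23.5%), which were Chac1, Vldlr, Asns and Atf3, against 1.55% of all tested genes with a promoter and 1.9% of all promoters. Of 19 tested list genes 17 had a positive difference and 5 were higher at an unadjusted p under 0.05 (26.3%), with 0 lower, none past the threshold and a median of 0.35. Chac1, which degrades glutathione, measured 4.15 and 4.40 in wild type, where it was below background, and 5.85, 5.37 and 8.15 in homozygous embryos. It was at least 4.09-fold higher, and most of that lay in embryo 16 (fitted difference 2.18 ± 0.73 SE, and 1.42 without embryo 16, limma, adjusted p = 0.263 with it). Shmt2, the mitochondrial enzyme of serine use, measured 10.14 and 10.20 against 10.64, 10.52 and 11.26 (0.64, adjusted p = 0.270). Asns, asparagine synthetase, measured 10.76 and 10.30 against 10.62, 10.65 and 11.72, so that embryo 16 alone lay above the wild type values. Median scaling gave 3 higher and 1 lower. No list gene had an unadjusted p under 0.05 without wild type embryo 11, without wild type embryo 13 or with the array number as a covariate. The list median was 0.16, 0.12 and 0.85 in embryos 2, 7 and 16, 0.18 in the fit without embryo 16 and 0.03 with the array number as a covariate.

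Genes of the extracellular matrix and its sulfated chains had a median of 0.23, which was 0.01 with median scaling and -0.02 in the authors' deposited values. The median of all tested probes was -0.25 and -0.28 under those scalings. Of 26 tested, 7 were higher at an unadjusted p under 0.05 (26.9%) and 0 lower, and none passed. The count was 1 with median scaling, in the deposited value table and with the array number as a covariate, 3 without wild type embryo 11 and 4 without wild type embryo 13. Besides Chst15, Lama1, a laminin chain of early basement membranes, measured 8.49 and 8.27 in wild type and 8.88, 8.91 and 9.07 in homozygous embryos (0.57, limma, adjusted p = 0.196). Chst12, another chondroitin sulfotransferase, differed by 0.50 (adjusted p = 0.246) and Plod2, which hydroxylates collagen lysines, by 0.74 (adjusted p = 0.289). The medians of embryos 2, 7 and 16 were 0.15, 0.20 and 0.32, and the fit without embryo 16 gave 0.20.

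Endothelial genes were mixed. Of 24 tested, 7 were higher and 2 lower at an unadjusted p under 0.05 (29.2% and 8.33%), none passed, and the median was 0.16, or -0.01 in the deposited value table. There 2 were higher and 4 lower, with median scaling 3 and 2, and 2 and 0 with the array number as a covariate or without wild type embryo 11, 3 and 0 without wild type embryo 13. Cd93, a receptor of endothelium, measured 8.54 and 8.97 against 9.33, 9.52 and 9.65 (0.75, adjusted p = 0.199). Vwf, von Willebrand factor, differed by 0.80 (adjusted p = 0.256) and Sox7, an endothelial transcription factor, by 0.75 (adjusted p = 0.239). Angpt2, an antagonist of the Tie2 receptor, differed by -0.53 (adjusted p = 0.259) and Fli1 by -0.33 (adjusted p = 0.311). Of the markers of the type, Kdr, a receptor for Vegfa, differed by 0.37 (adjusted p = 0.323) and Pecam1 by 0.16, or -0.04 in the deposited value table (adjusted p = 0.489).

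Lysosomal genes had a median of 0.08, or -0.19 with median scaling, with 4 of 23 higher and 1 lower at an unadjusted p under 0.05, and 1 and 2 with median scaling. Without wild type embryo 13 it was 2 higher and 1 lower. Glb1, the lysosomal beta-galactosidase, measured 8.58 and 8.55 in wild type, 8.49, 8.62 and 8.64 in heterozygous and 9.23, 9.19 and 9.42 in homozygous embryos. The homozygous values were tightly grouped above all others (0.72 ± 0.12 SE, limma, adjusted p = 0.141). Hexa, a hexosaminidase subunit, differed by 0.46 (adjusted p = 0.235) and the protease Ctsb by -0.49 (adjusted p = 0.216).

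On the low side the list of macrophage and myeloid genes had the lowest median, -1.08, of the 37 lists. Of 15 tested, 14 had a negative difference, against 6903 of all 11002 tested genes. At an unadjusted p under 0.05, 7 were lower (46.7%), and Fcgr1 passed. Only 7 of the 15 were above background on all 8 arrays, and these had a median of -0.60 with 2 lower, while the median with normexp was -0.61. The other 8 were above background on all arrays of some genotypes and not of others, and a member that passes the filter on dim probes only through a group where it is high has to differ. Mrc1 was at the floor of 2.17 in homozygous embryo 7. The count of 7 was 1 without wild type embryo 11, 2 without wild type embryo 13, 12 without heterozygous embryo 10, 4 without homozygous embryo 16, 12 with the Y-linked mean as a covariate, 4 with cyclic loess and 1 with the array number, where the median was -0.73. In whole embryos fewer cells of a type and less RNA per cell cannot be told apart. Lyz2, lysozyme, measured 7.15 and 7.19 in wild type and 5.92, 6.01 and 5.65 in homozygous embryos (-1.31, limma, adjusted p = 0.270). C1qa, a chain of complement C1q, measured 7.33 and 7.61 against 5.67, 5.91 and 3.52 (-2.43, adjusted p = 0.292). Mrc1, the mannose receptor, measured 6.54 and 6.97 against 5.21, 2.17 and 4.66 (-2.75, adjusted p = 0.286).

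The macrophage genes did not separate the genotypes alone. Heterozygous embryo 10 was as low as the homozygous embryos, with Mrc1 at 4.26 and Lyz2 at 5.96, while heterozygous embryos 3 and 15 lay near the wild type with C1qa at 7.26 and 7.67. The list median against the wild type mean was -1.26, -1.12 and -0.85 in homozygous embryos 2, 7 and 16, -1.79 in heterozygous embryo 10, and -0.11 and 0.20 in heterozygous embryos 3 and 15. Cd163, a scavenger receptor of mature macrophages, ran the other way at 0.72 (adjusted p = 0.366). Csf1r and Cd68 had no matched probe, and Fcer1g, the tested marker of the type, differed by -0.82 (adjusted p = 0.460).

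**Figure D3:**
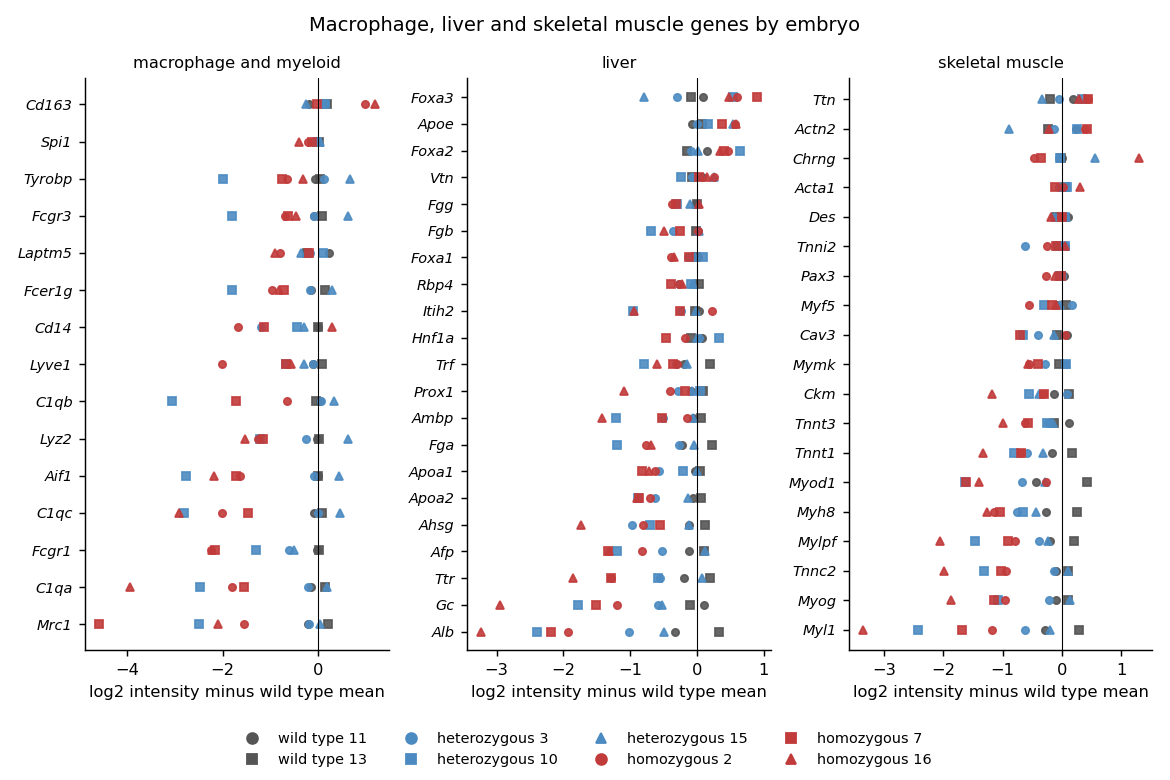
Log2 intensity minus the wild type mean (horizontal axis) for each tested gene of the macrophage (left, 15 genes), liver (middle, 21 genes) and skeletal muscle (right, 19 genes) lists, by embryo and genotype. Homozygous points lie to the left for most genes, and heterozygous embryo 10 lies with them for the C1q genes, Alb and Myl1.

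Liver genes had a median of -0.42. Of 21 tested, 1 was higher and 8 were lower at an unadjusted p under 0.05 (38.1%), and none passed. Without either wild type embryo 5 were lower, and with the array number as a covariate 1, with a median of -0.16. Alb, albumin, measured 8.30 and 8.96 in wild type, 7.61, 6.23 and 8.14 in heterozygous and 6.71, 6.45 and 5.40 in homozygous embryos (-2.45 ± 0.59 SE, limma, adjusted p = 0.209). Afp, alpha-fetoprotein of fetal liver and yolk sac, measured 11.10 and 11.33 against 10.39, 9.88 and 9.90 (-1.16, adjusted p = 0.246). Both markers were low in all homozygous embryos and in heterozygous embryo 10. The liver list median against the wild type mean was -0.37, -0.37 and -0.70 in homozygous embryos 2, 7 and 16. In heterozygous embryos 3, 10 and 15 it was -0.32, -0.58 and -0.04, so lower liver genes were not particular to the homozygous embryos. Apoa1 and Apoa2, the apolipoproteins of high-density lipoprotein, differed by -0.73 and -0.82 (adjusted p = 0.205 and 0.216). Apoe, which many tissues make, ran the other way at 0.51 (adjusted p = 0.270), and Foxa2, a transcription factor of liver and gut endoderm, was at 0.40 (adjusted p = 0.409).

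Skeletal muscle genes had a median of -0.51, with 0 of 19 higher and 8 lower at an unadjusted p under 0.05 (42.1%) and none past the threshold. It was 3 lower without wild type embryo 13, 4 without wild type embryo 11, 5 without homozygous embryo 16 and 1 with the array number as a covariate, and the median was -0.22 with normexp. The list median against the wild type mean was -0.47, -0.40 and -0.78 in homozygous embryos 2, 7 and 16. In heterozygous embryos 3, 10 and 15 it was -0.21, -0.29 and -0.13. Myog, the factor of muscle differentiation, measured 7.96 and 8.17 in wild type and 7.11, 6.92 and 6.20 in homozygous embryos (-1.32, limma, adjusted p = 0.235). Tnnt3 and Tnnt1, troponins of fast and slow fibres, differed by -0.72 and -0.90 (adjusted p = 0.193 and 0.218). Myl1, a fast myosin light chain, measured 6.78 and 7.36 against 5.88, 5.38 and 3.71, and 4.65 in heterozygous embryo 10. Pax3, which marks muscle progenitors, was at -0.13 (adjusted p = 0.587). The marker Acta1, the skeletal actin, measured 9.24 and 9.34 against 9.32, 9.18 and 9.60, a difference of 0.07, or -0.25 in the deposited value table (adjusted p = 0.820). Heart genes, which share part of the contractile set, had a median of 0.09, or -0.15 with median scaling, with 0 of 22 higher and 2 lower at an unadjusted p under 0.05. With the Y-linked mean as a covariate 5 were higher and 2 lower, 4 and 2 without heterozygous embryo 10, and 0 in either direction without wild type embryo 11. The 2 were Sln, sarcolipin of the calcium pump (-0.79, adjusted p = 0.288), and Tnnc1, the troponin C of heart and slow muscle (-0.58, adjusted p = 0.273). The markers Myl7, Tnnt2 and Actc1 differed by 0.42, 0.32 and 0.23, and by 0.012, 0.027 and -0.18 in the deposited value table, none past the threshold.

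Neuronal genes had a median of -0.38, with 24 of 27 negative, against 6903 of all 11002 tested genes. At an unadjusted p under 0.05, 4 were lower (14.8%, beside 9.84% of all genes) and 1 was higher, which was Onecut1. The count of 4 was 0 without homozygous embryo 16 or wild type embryo 11 and with the array number as a covariate, 1 without wild type embryo 13, and 2 without heterozygous embryo 3 or homozygous embryo 7. It was 13 without heterozygous embryo 10 or with median scaling, and 11 with only the 5 compared arrays. Of all genes 9.66%, 15.1% and 8.02% were lower in these 3 fits. The neuronal list median against the wild type mean was -0.33, -0.40 and -0.95 in homozygous embryos 2, 7 and 16. In heterozygous embryos 3, 10 and 15 it was -0.06, -0.70 and 0.03. Stmn2, a tubulin-binding protein of growing axons, measured 10.81 and 11.02 in wild type and 9.97, 10.03 and 9.87 in homozygous embryos (-0.96, limma, adjusted p = 0.310), and 9.37 in heterozygous embryo 10. Elavl4, an RNA-binding protein of neurons, differed by -0.77 (adjusted p = 0.281). Lens and pigment genes, which come on as the eye matures, had a median of -0.61 over 11 genes, with 2 lower and 0 higher at an unadjusted p under 0.05 (18.2%, beside 9.84% of all genes). The median was -0.30 without wild type embryo 13, -0.22 with normexp and -0.26 with the array number as a covariate, and 0 were lower with cyclic loess or that covariate and between 1 and 3 without 1 embryo. The lens and pigment list median against the wild type mean was -0.42, -0.33 and -0.76 in homozygous embryos 2, 7 and 16. In heterozygous embryos 3, 10 and 15 it was -0.33, -0.29 and -0.11. Dct, an enzyme of melanin synthesis, was at -0.72 (adjusted p = 0.296, with 1 wild type value missing). Cartilage and limb genes had a median of -0.34 over 15 genes, with 3 lower and 1 higher at an unadjusted p under 0.05. Without wild type embryo 13 the median was -0.14 with 0 in either direction, between 2 and 5 were lower without any other single embryo, and with the array number as a covariate it was -0.05. Tbx15 was at -1.28 (adjusted p = 0.235) and Col9a3 at -0.72 (adjusted p = 0.274), while Fgf8 was at 0.49 (adjusted p = 0.275) and Col2a1, the main cartilage collagen, at 0.29 (adjusted p = 0.650).

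Among 31 tested Hox genes the median was -0.17, with 5 lower (16.1%) and 0 higher at an unadjusted p under 0.05 and none past the threshold. Between 1 and 8 were lower in the fits that left out 1 embryo. With only the 5 compared arrays 4 were lower and 3 higher. Without wild type embryo 13 the median was -0.05 with 1 lower, without wild type embryo 11 2 were lower, and with the array number as a covariate 0. The 5 were Hoxc9, Hoxa9, Hoxd9, Hoxa11 and Hoxa10, all posterior members that pattern the trunk and limb. Hoxa9 measured 7.21 and 7.11 in wild type and 6.34, 6.76 and 6.10 in homozygous embryos (-0.76, limma, adjusted p = 0.239). Hoxa10 measured 8.57 and 8.80 against 7.05, 8.42 and 7.72, so embryo 2 was lowest there (-0.95, adjusted p = 0.304).

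**Figure D4:**
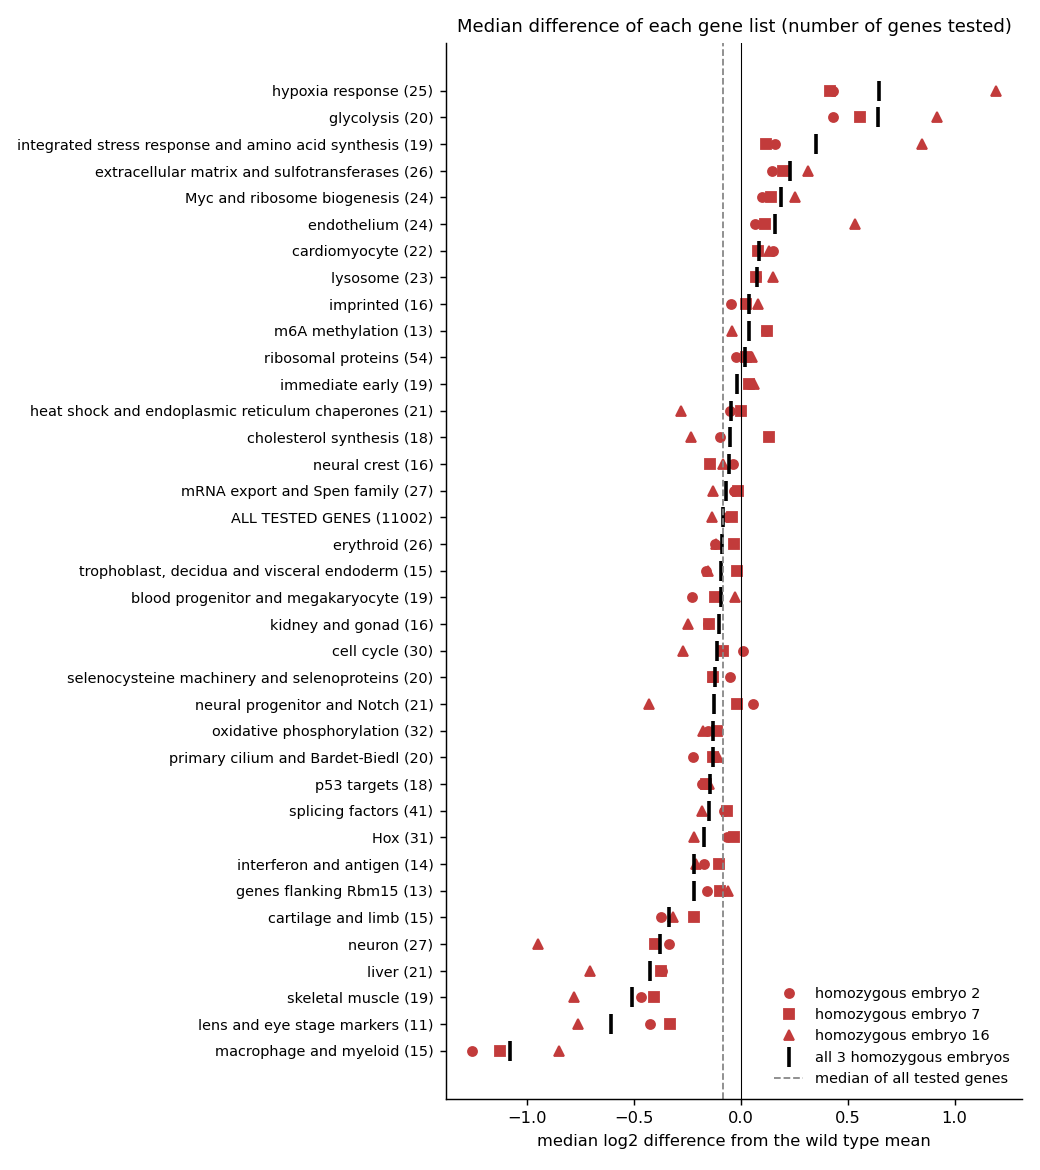
Median log2 difference from the wild type mean (horizontal axis) for each gene list (number of tested genes in brackets), in each homozygous embryo (red points) and in the fit of all 3 (black bar). The dashed line is the median of all tested genes; hypoxia response and glycolysis lie at 0.65 and 0.64 and macrophage and myeloid genes at -1.08.

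In the processes in which Rbm15 itself works, the 13 tested genes of m6A methylation had a median of 0.04, or -0.27 with median scaling, with 2 higher at an unadjusted p under 0.05, which were Rbm15b and Alkbh5. Alkbh5, an eraser of m6A, measured 9.24 and 9.48 in wild type and 9.87, 9.90 and 10.21 in homozygous embryos (0.64, limma, adjusted p = 0.216). The 41 splicing factors had a median of -0.15 with 2 lower, Sf3a1 (-0.80, adjusted p = 0.249) and Hnrnpc (-0.39, adjusted p = 0.307). The 27 genes of mRNA export and the Spen family had a median of -0.07 with 1 higher and 2 lower. Ribosomal protein genes, 54 in number, had a median of 0.02, or -0.24 with median scaling, with 0 at an unadjusted p under 0.05 in either direction.

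Genes of Myc and ribosome biogenesis had a median of 0.19, or -0.09 with median scaling, with 4 of 24 higher at an unadjusted p under 0.05 (0 with median scaling or the array number as a covariate, 2 without wild type embryo 11, 1 without wild type embryo 13), among them Mycn (0.70, adjusted p = 0.247) and Polr1b, a subunit of RNA polymerase I (0.66, adjusted p = 0.242). Cell cycle genes had a median of -0.11 over 30 genes with 1 lower, Ccnb1 (-0.33, adjusted p = 0.307). Among 18 p53 targets 4 were lower and 1 higher at an unadjusted p under 0.05, with a median of -0.14, and between 1 and 4 were lower in the fits that left out 1 embryo, with 1 without wild type embryo 11 or wild type embryo 13. Pmaip1, the proapoptotic Noxa, measured 7.97 and 8.50 in wild type and 6.62, 6.69 and 6.59 in homozygous embryos, without overlap (-1.60 ± 0.34 SE, adjusted p = 0.180). Sesn2, which also answers to the stress response, was the gene on the high side (0.82, adjusted p = 0.279).

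The 26 erythroid genes had a median of -0.09, with 4 lower and 1 higher at an unadjusted p under 0.05, and between 1 and 4 lower in the fits that left out 1 embryo, with 1 without wild type embryo 13. The higher gene was Nfe2, a transcription factor of red cells and megakaryocytes (0.44, adjusted p = 0.301). Ermap, a protein of the red cell membrane, measured 10.33 and 10.19 in wild type and 9.66, 9.79 and 9.63 in homozygous embryos (-0.56, limma, adjusted p = 0.180). Of the markers, Slc4a1, the anion exchanger of red cells, differed by -0.24 (adjusted p = 0.444), Klf1, a transcription factor, by 0.17 and Alas2, the first enzyme of haem synthesis, by 0.08 (adjusted p = 0.721 and 0.814). The differences of Klf1 and Alas2 were -0.11 and -0.29 in the deposited value table. The 19 genes of blood progenitors and megakaryocytes had a median of -0.09 with 2 lower at an unadjusted p under 0.05, among them Gata2, a transcription factor of blood progenitors (-0.46, adjusted p = 0.256). Of the markers of tissue outside the embryo, Prl3b1, a placental lactogen, was above background in all 5 embryos and differed by -1.16 (adjusted p = 0.247), while Prl3d1, Tpbpa and Amn did not pass the filter on dim probes.

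Genes lower in homozygous embryos were unevenly spread over chromosomes, a count made after the values had been seen. On chromosome 3, which carries Rbm15, 86 of 551 tested genes were lower at an unadjusted p under 0.05 (15.6%, against 9.84% of all genes), the highest share of 20 chromosomes. Chromosome 3 had the highest share in 22 of 23 alternative analyses, and in the fit with the array number as a covariate it came second. Fcgr1, Ctsk and Mcub lie on this chromosome, as do the histone gene H2bc21 (-1.38, limma, adjusted p = 0.155) and Car3, a carbonic anhydrase of muscle and fat (-0.95, adjusted p = 0.153). In blocks of 50 tested genes along the chromosome, the block with Fcgr1 held 15 lower and 5 higher genes (30.0% lower, median -0.30) and the block before it 12 lower and 2 higher. The next block, in which Rbm15 lies, held 4 lower and 6 higher, and of 13 tested genes flanking Rbm15 0 were lower and 1 higher. The first block of the chromosome, far from these, also held 12 lower, with 1 higher (24.0% lower). The block after that of Rbm15 held 9 lower and 4 higher (18.0%), so lower genes were not confined to the blocks near Fcgr1. Chromosome 4 had 84 lower genes of 676 (12.4%), the fourth highest share.

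**Figure D5:**
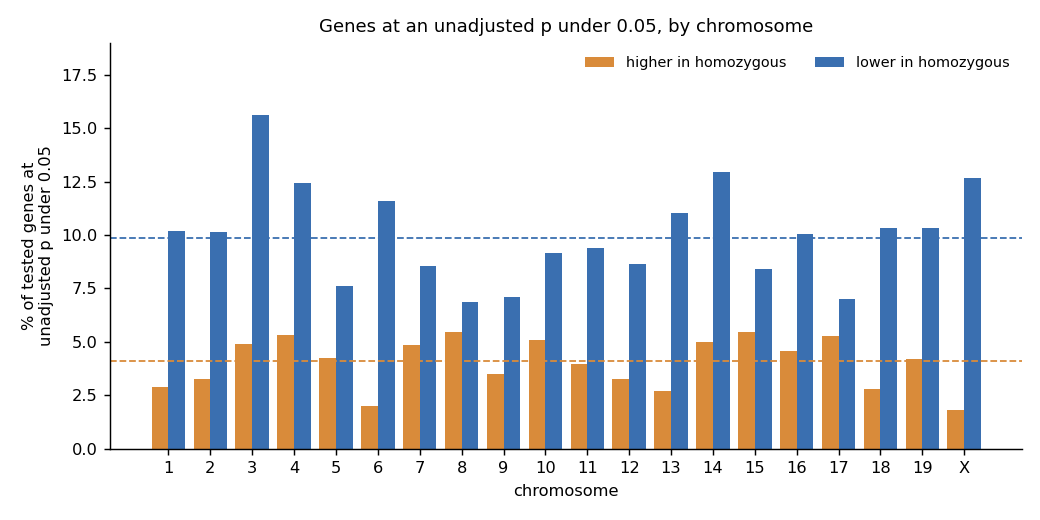
Percentage of tested genes (vertical axis) that were higher (orange) or lower (blue) in homozygous embryos at an unadjusted p under 0.05, by chromosome (horizontal axis). Dashed lines are the shares over all tested genes, 4.09% higher and 9.84% lower; chromosome 3 has the tallest blue bar, 15.6%.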

How the data were processed

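Total RNA of 8 single embryos was labelled with biotin and hybridised to CodeLink arrays, per the labels' protocols. The deposited array files give a background-corrected intensity per spot, the spot mean less the local background median per the file headers. The deposited value table holds the same intensity scaled down array by array, with factors from 48.64 to 88.45.

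The 320 negative and 300 positive control spots were left out, and spots with a quality mark were set to missing. Deposited intensities were quantile normalized over the 8 arrays, floored at the 5th percentile of positive values (4.5) and converted to log2. A probe was kept where every array of some genotype had it above background. limma 3.58.1 in R 4.3.3 fitted 3 genotype means over 8 arrays, and homozygous minus wild type was tested two-sided with Benjamini-Hochberg adjustment at 0.05. Every adjusted p in the text comes from such a limma fit. With 3 arrays against 2 there are 10 ways to split the arrays, so an exact test of a single value could not reach 0.05, and the number of arrays limits the precision. In simulated data 50.7% of 67 probes changed by a log2 of 1 were called, 94.0% of 67 changed by 2 and 100.0% of 66 changed by 4, among 21788 probes. Of the unchanged probes 5 were called as well. The simulated noise was normal, independent between probes and arrays, and had no array that stood apart. These shares therefore need not hold for the real arrays.

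A probe below background on all arrays of a group has only a bound there, given as "at least". It was taken from the lowest signal among probes called above background on each array, or from the probe's own value where that was higher. Since some probes called below background read higher than that signal, the bound is approximate. Probes were named through RefSeq transcript accessions (GRCm38.p6 gene table), which matched 14763 of 34967. Where a gene had several probes, that with the highest mean stood for it in the list counts. Named were up to 15 genes per direction that passed or had the smallest p, up to 4 unnamed probes per direction, up to 5 members of each list with the smallest p and up to 3 with the highest level, cell type markers, Rbm15b, and the chromosome 4 genes with their neighbours. The comparison's gene lists and members were chosen with earlier results of these data known. Car3, H2bc21 and the other chromosome 3 genes were singled out after their values were seen. Alternatives changed the normalization, floor, background correction, probe filter, arrays fitted, array weights, prior and covariates, and left out each embryo in turn. The array number as a covariate was added after seeing the data.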

Additional observations from a re-analysis of the deposited data

How the results depend on the processing

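The count of 8 probes past the adjusted threshold (limma) depended on the processing. It was 27 with median scaling, 27 in the deposited value table, 20 with cyclic loess, 36 with normexp and 48 with a trended robust prior. Array weights gave 208. It was 5 with the floor at the 1st percentile, 4 with no filter on dim probes, 5 with marked spots kept, 0 with only the 5 arrays compared (3042 at an unadjusted p under 0.05) and 0 with the array number as a covariate (752), which was chosen after seeing the data. Leaving out 1 embryo gave between 0 and 42 probes. Omitting wild type embryo 11 left 0 and omitting wild type embryo 13 left 2, while the fits lacking heterozygous embryos 3 and 15 gave 4 and 5. Dropping homozygous embryo 16 gave 21 and dropping homozygous embryo 7 gave 42. All 8 probes also passed in the deposited value table and with median scaling, normexp, array weights or the trended robust prior. The difference of Rbm15b was -0.016 in the deposited value table. That of Atf4 was -0.25 in the deposited value table and -0.21 with median scaling, that of Asns was -0.059 with the array number as a covariate, and that of Atf3 was -0.12 with that covariate and ranged from -0.21 to 0.36 over the fits that left out 1 embryo, with -0.21 without wild type embryo 13. With median scaling the differences of Pecam1, Acta1, Actc1, Klf1 and Alas2 were -0.0062, -0.21, -0.14, -0.078 and -0.26, and in the deposited value table -0.041, -0.25, -0.18, -0.11 and -0.29. Array weights gave -0.029 for Acta1 and -0.0035 for Alas2, and the array number as a covariate -0.0038 for Acta1 and -0.023 for Klf1. Over the fits that left out 1 embryo Acta1 ranged from -0.044 to 0.167, Col2a1 from -0.11 to 0.68, Klf1 from -0.019 to 0.36 and Alas2 from -0.044 to 0.18. The cause of these changes was not tested. For the 116 genes and probes given with values, 2497 values under alternatives kept their direction and their side of the threshold, 67 came past it, 61 fell short of it and 24 changed sign. Of all 296 probes that the naming rule chose, 77 changed sign in at least 1 alternative. Of the list medians 721 moved by less than the SD of the 3 homozygous embryos' own list medians and 130 by more. No paired analysis was possible because the embryo numbers are not shared between genotypes. Probes near background are limited by their signal, and a fold there is a bound.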
